A study of Tupaia belangeri chinensis with 36 samples.

Results

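The genes described here are those that were abundant in 2 of the 3 non-reproductive testis libraries of the tree shrew and at least 10-fold lower in the reproductive testis. A gene was taken when its mean over the libraries TESTIS-NR 1 and TESTIS-NR 2 was at least 50 CPM (the gene's counts scaled to a fixed library total) and at least 10 times its mean over the 3 TESTIS-R libraries. Of the 27777 genes of the deposited RNA-seq table, 119 met the rule. The series sampled testis, caput (head) epididymis and cauda (tail) epididymis of Tupaia belangeri chinensis males of 1.5 to 2 years, in the non-reproductive season of December 2023 (NR) and in the reproductive season of April 2024 (R). No treatment, strain or allele is named for any group, and each of the 6 groups had 3 RNA-seq libraries. The labels do not say whether replicates of different tissues came from the same animals. Season and date of collection cannot be told apart, since each season was sampled at 1 time.

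In seasonal breeders the testis shrinks outside the breeding season as meiotic and postmeiotic germ cells are lost, while Sertoli cells, Leydig cells, peritubular muscle, vessels and immune cells remain. The epididymis, which depends on androgen and on fluid from the testis, matures sperm in the caput and stores them in the cauda. In bulk tissue, fewer cells of a type and less RNA per cell cannot be told apart, and a transcript's CPM also rises when other transcripts are lost from the same library. The labels give the season and no measure of testis size or histology, so whether these testes were regressed was not tested. The gene identifiers, of the form TSDBGID followed by a number, are not paired with gene names in the files. None of the 27777 (0) matched the RefSeq gene table of the species (assembly TupChi_1.0). Marker genes of testicular and epididymal cell types could therefore not be looked up, and the members are given by identifier for a few and otherwise by rank, rank 1 being the highest mean over TESTIS-NR 1 and 2.

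Library totals ran from 26703225 to 37174187 counts. One testis library went against its season label. Over the genes with any count, its rank correlation was 0.967 to 0.972 with libraries of TESTIS-R, 0.913 with TESTIS-NR 1 and 0.860 with TESTIS-NR 2. It was not used to choose the members, and all values of the library labelled TESTIS-NR 3 are given apart from those of TESTIS-NR 1 and 2.

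Among the 5408 genes of at least 50 CPM in TESTIS-NR 1 and 2, the 119 members were 2.20%. The values in this and the next paragraph are those the rule used, so they are a description with no test. The members were a small but abundant set in TESTIS-NR 1 and 2: together they held 2.37% and 2.87% of all counts, against 0.162%, 0.176% and 0.163% in the 3 TESTIS-R libraries. Their mean over TESTIS-NR 1 and 2 ran from 50.1 to 2972 CPM with a median of 115.8 CPM. In TESTIS-R their means ran from 0 to 250.8 CPM with a median of 6.87 CPM. The median ratio of the TESTIS-NR 1 and 2 mean to the TESTIS-R mean was 15.5, where all 5408 genes had a median of 1.58. The ratio was at least 20 in 40 members and at least 100 in 15. The member nearest the limit had 324.9 against 32.4 CPM, a ratio of 10.04, and the nearest gene outside had 192.9 against 19.3 CPM, a ratio of 9.98. By level, the lowest member had 50.1 CPM, and the highest gene left out that met the ratio had 49.9 CPM.

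The most abundant member, TSDBGID.7311, had 2695 CPM in TESTIS-NR 1 and 3248 CPM in TESTIS-NR 2. It had 259.5, 202.9 and 290.1 CPM in TESTIS-R 1, 2 and 3, and 286.2 CPM in TESTIS-NR 3. The second, TSDBGID.18083, had 1477 and 1916 CPM in TESTIS-NR 1 and 2, 217.7 CPM in TESTIS-NR 3, and 38.2, 125.5 and 21.5 CPM in TESTIS-R. In both, TESTIS-NR 1 and 2 lay far above the other 4 testis libraries. For TSDBGID.7311 the library TESTIS-NR 3 fell inside the range of TESTIS-R, and for TSDBGID.18083 it lay above that range. A few members were not detected at all in the reproductive testis: 3 had 0 counts in all 3 TESTIS-R libraries, 105331828 counts in total. Against a floor of 3 counts over that total, the members ranked 100 and 113 were at least 2263-fold and 1875-fold higher in TESTIS-NR 1 and 2. The floor covers counting error only. The third of them, ranked 83, had 171.5 CPM in TESTIS-NR 1 and no count in any of the 5 other testis libraries or in any epididymal library.

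**Figure D1:**
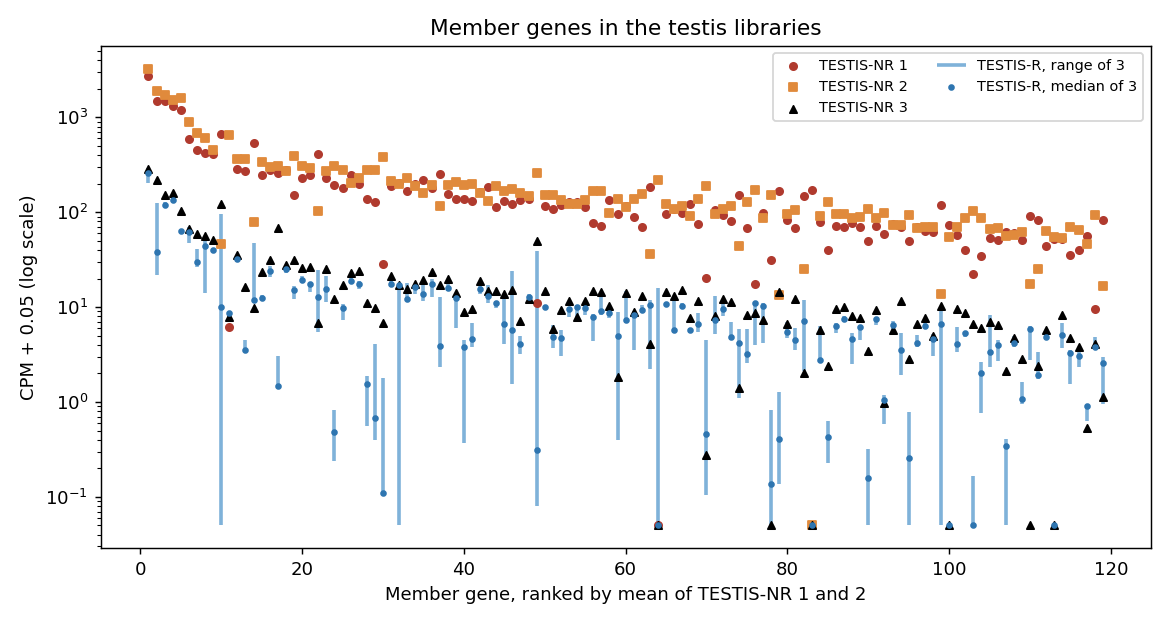
CPM plus 0.05 on a log axis of the 119 members in each testis library, ordered by the mean of TESTIS-NR 1 and 2; bars span the 3 TESTIS-R libraries and blue dots are their median. The black triangles of TESTIS-NR 3 lie inside the TESTIS-R bars for 37 members, above them for 78 and below them for 4. For 113 of the 119 members they lie below both TESTIS-NR 1 and 2. The same held for TESTIS-NR 3 in 64.1% of the 5408 genes of at least 50 CPM in TESTIS-NR 1 and 2.

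The first question about data the rule did not use was whether the members were also high in the remaining non-reproductive testis library. They were not. In TESTIS-NR 3 they held 0.253% of counts, and none of the 119 (0) reached 0.5 times its mean in TESTIS-NR 1 and 2. Of the 5408 genes of at least 50 CPM in TESTIS-NR 1 and 2, 58.4% did. The median member stood at 9.19% of its mean there, with quartiles of 5.29% and 11.4%, and the median of the 5408 genes at 61.5%. The rule picks genes high in TESTIS-NR 1 and 2 over TESTIS-R, which TESTIS-NR 3 resembled over all genes. The members and the 5408 genes are therefore not on equal terms. At the top were the member ranked 49, at 36.6%, and the member ranked 10, at 34.4%. Both were also far from even between the other libraries, with 11.0 and 260.4 CPM in TESTIS-NR 1 and 2 for rank 49, and 670.2 and 45.9 CPM for rank 10.

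TESTIS-NR 3 nevertheless did not equal TESTIS-R for these genes. It was above all 3 TESTIS-R libraries in 78 members (65.5%), inside their range in 37 and below it in 4. Of all 5408 genes of at least 50 CPM in TESTIS-NR 1 and 2, 21.8% were above all TESTIS-R libraries, which is the share to read the members against. The TESTIS-R values had been used by the rule, which favours genes low in them, so the 2 shares are not on equal terms. The median ratio of TESTIS-NR 3 to the TESTIS-R mean was 1.38 over the members and 0.990 over the 5408 genes. A ratio of at least 2 was reached by 27 members (22.7%, against 0.925% of the 5408 genes). Of these, 15 were among the 30 members that were nearly absent from the epididymis, described next, and 12 among the other 89. The 2 parts differed less by the other measure: TESTIS-NR 3 was above all TESTIS-R libraries in 21 of the 30 and 57 of the 89. The ratio divides by the TESTIS-R mean, which the rule used. The clearest case was the member ranked 17, with 262.0 and 306.7 CPM in TESTIS-NR 1 and 2, 68.7 CPM in TESTIS-NR 3, and 1.42, 1.43 and 3.02 CPM in TESTIS-R. With 1 library on one side, no test of TESTIS-NR 3 against TESTIS-R was made.

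The members fell into different kinds by their level in the epididymis, whose 12 libraries the rule did not use. For each member the higher of its caput mean and its cauda mean (6 libraries each, both seasons) was taken. It was at least 50 CPM in 55 members, from 5 to 50 CPM in 34, and under 5 CPM in 30. Among the 5408 genes of at least 50 CPM in TESTIS-NR 1 and 2, 3.18% were under 5 CPM in both segments and 70.0% reached 50 CPM, where the members stood at 25.2% and 46.2%. The set chosen by the same rule with the seasons swapped, 70 genes high in TESTIS-R, had 55.7% under 5 CPM and 5.71% at 50 CPM or more. The members thus lay between the general testis transcripts and the genes that are high in the reproductive testis. Their level in the testis told little of their level in the epididymis: across the 119 genes, which share all libraries, Pearson's r between the log2 values was 0.13 and Spearman's rho 0.12.

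The 30 members under 5 CPM in both segments, low in TESTIS-R and in the epididymis by the rule and the class limit, held 0.300% of TESTIS-NR 1, 0.535% of TESTIS-NR 2 and 0.0348% of TESTIS-NR 3 counts, 0.0130% to 0.0151% in TESTIS-R, and 0.00147% to 0.00620% in the epididymal libraries. In no epididymal library did any of them exceed 8.97 CPM. Their median ratio of TESTIS-NR 1 and 2 to TESTIS-R was 44.4, against 13.6 in the members of at least 50 CPM and 14.2 in those between. That ratio was used by the rule, so the classes are described by it with no test. In 27 of the 30 both TESTIS-NR 1 and 2 were above the other 4 testis libraries, and the exceptions were ranked 11, 49 and 83. That was not particular to this class. The same held for 113 of all 119 members, which the rule favours, and for 60.0% of the 5408 genes of at least 50 CPM. In 24 of the 30 TESTIS-NR 2 was the higher library, and in 10 by more than 2 times. It was the higher one in 86 of all 119 members and 3124 of the 5408 genes. By 2 to 5 times it was higher in 11 of the 119 and 67 of the 5408, and by more than 5 times in 7 and 28. For example, the member ranked 13 had 271.4 and 363.1 CPM in TESTIS-NR 1 and 2, 16.2 CPM in TESTIS-NR 3, 3.44 to 4.41 CPM in TESTIS-R and at most 5.63 CPM in any epididymal library. The member ranked 29 had 129.4 and 281.6 CPM, then 9.78 CPM in TESTIS-NR 3, 0.350 to 4.07 CPM in TESTIS-R and at most 0.778 CPM in the epididymis.

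**Figure D2:**
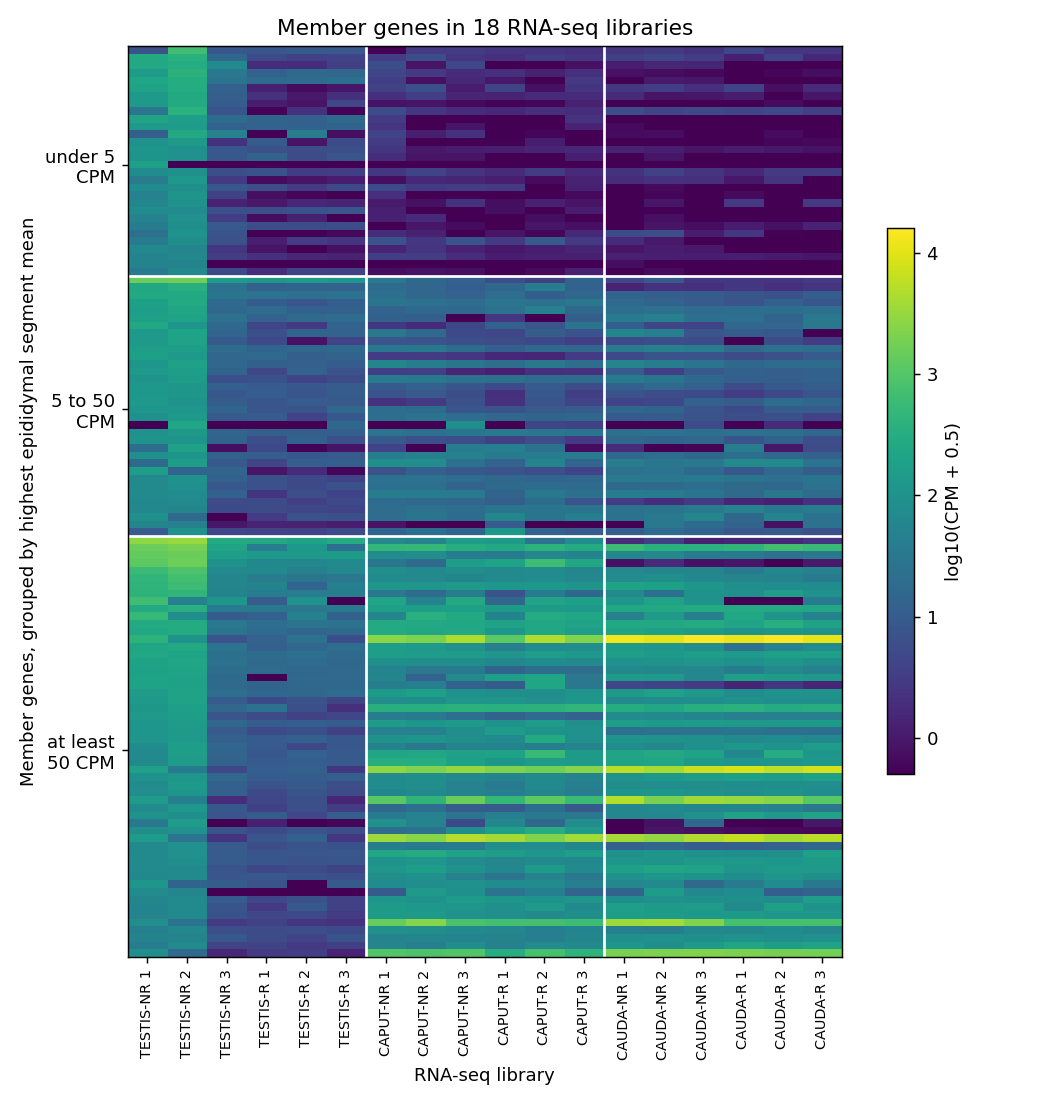
Heat map of log10(CPM + 0.5) for the 119 members (rows, grouped by the higher of the caput and cauda means and ordered by testis level within a group) in the 18 libraries (columns). In the top block, 27 of the 30 members are brighter in both TESTIS-NR 1 and 2 than in the other testis libraries, as are 113 of all 119. Many of the 55 in the bottom block are as bright in caput and cauda, where 6 rows are brightest.

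The 55 members of at least 50 CPM were shared with the epididymis, and 25 members in all had a higher mean in caput or cauda than in TESTIS-NR 1 and 2 (21.0%, against 32.0% of the 5408 genes). Of these, 6 were at least 10 times higher there (5.04%, against 0.592%), by factors of 29.4 to 58.5. The member ranked 22 had 409.1 and 101.9 CPM in TESTIS-NR 1 and 2, 6.68 CPM in TESTIS-NR 3, 5.44 to 24.6 CPM in TESTIS-R, 1188 to 4701 CPM in caput and 10375 to 16026 CPM in cauda. The member ranked 82 had 146.9 and 25.2 CPM in TESTIS-NR 1 and 2, 1.97 CPM in TESTIS-NR 3, 2.09 to 11.9 CPM in TESTIS-R, and 2281 to 6192 CPM in the epididymis. These 6 genes gave most of the members' counts in the epididymis: all members held 1.40% to 2.21% of caput counts and 3.15% to 4.11% of cauda counts, and without the 6 these shares were 0.512% to 0.745% and 0.553% to 0.631%. In the testis the 6 took 0.106% of TESTIS-NR 1 and 0.0249% of TESTIS-NR 2.

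**Figure D3:**
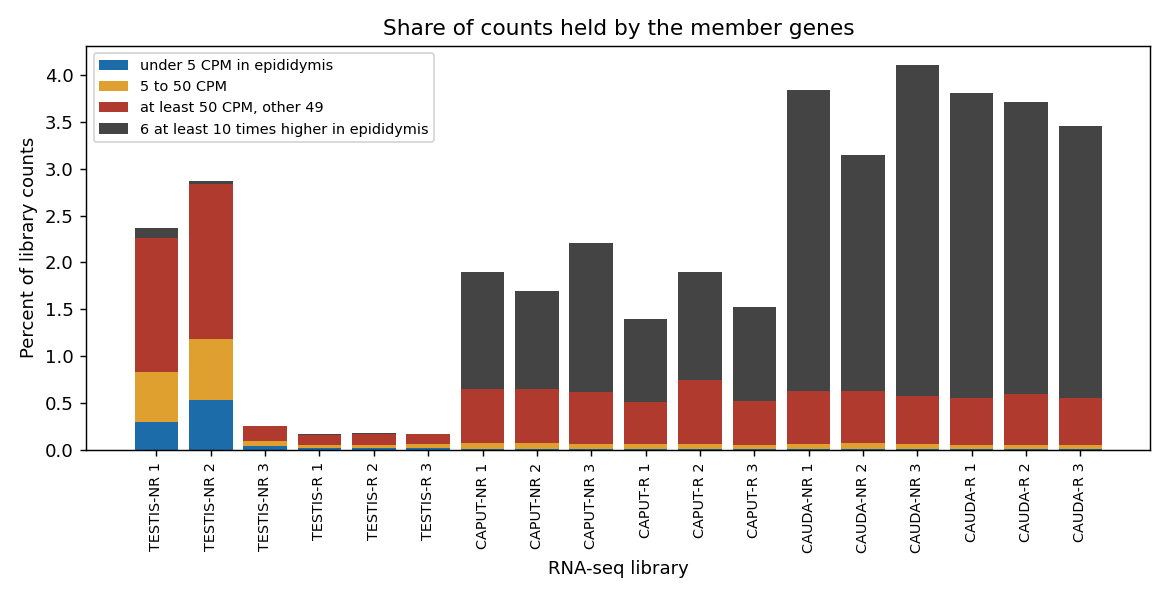
Percent of library counts held by the members in each of the 18 libraries, as bars stacked by epididymal level. The members hold 2.37% and 2.87% in TESTIS-NR 1 and 2 and at most 0.253% in the other testis libraries, and most of the epididymal bars is the dark part of 6 genes.

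The 6 members also leaned to 1 of the testis libraries. In 6 of 6 TESTIS-NR 1 was higher than TESTIS-NR 2, by ratios of 3.27 to 5.84 with a median of 4.51. The rule used both libraries, so this is a description with no test. Of the other 113 members 27 were higher in TESTIS-NR 1, and their median ratio was 0.809. Of the 5408 genes of at least 50 CPM in TESTIS-NR 1 and 2, 42.2% were higher in TESTIS-NR 1. A list of 95 genes that are no members was drawn from these data. Each had a mean of at least 200 CPM over the epididymal libraries and at least 50 times its TESTIS-R mean. Together they took up 0.307% of TESTIS-NR 1 and 0.187% of TESTIS-NR 2. They took up 0.0456% in TESTIS-NR 3, 0.0349% to 0.0611% in TESTIS-R, 7.23% to 11.9% in caput and 5.18% to 7.80% in cauda. The low shares in TESTIS-R and the high ones in the epididymis follow from the choice of the list. Of the 95, 70 were higher in TESTIS-NR 1 than in TESTIS-NR 2, against 42.2% of the 5408 genes. Their median ratio of TESTIS-NR 1 to TESTIS-NR 2 was 1.77, smaller than the 4.51 of the 6 members. The part of epididymal RNA in the levels of the 6 members was not tested.

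TESTIS-NR 1 and 2 were within 2 times of each other for 88 of the 119 members (74.0%), against 93.2% of the 5408 genes. More than 5 times apart were 9 members higher in TESTIS-NR 1 and 7 higher in TESTIS-NR 2, where the 5408 genes gave 85 and 28. The member ranked 11 had 6.11 CPM in TESTIS-NR 1 and 657.6 CPM in TESTIS-NR 2, with 7.75 CPM in TESTIS-NR 3 and 7.58 to 8.82 CPM in TESTIS-R. For this gene TESTIS-NR 2 alone stood apart, and TESTIS-NR 1 lay below all other testis libraries. The member ranked 14 was higher in TESTIS-NR 1, with 530.1 CPM there and 79.1 CPM in TESTIS-NR 2. It had 9.81 CPM in TESTIS-NR 3 and 11.3 to 47.1 CPM in TESTIS-R, so TESTIS-NR 2 too lay above these. The rule takes a mean, so such genes enter through 1 library. Taken alone, both TESTIS-NR 1 and TESTIS-NR 2 met the rule in 77 members, only TESTIS-NR 1 in 14 and only TESTIS-NR 2 in 28.

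**Figure D4:**
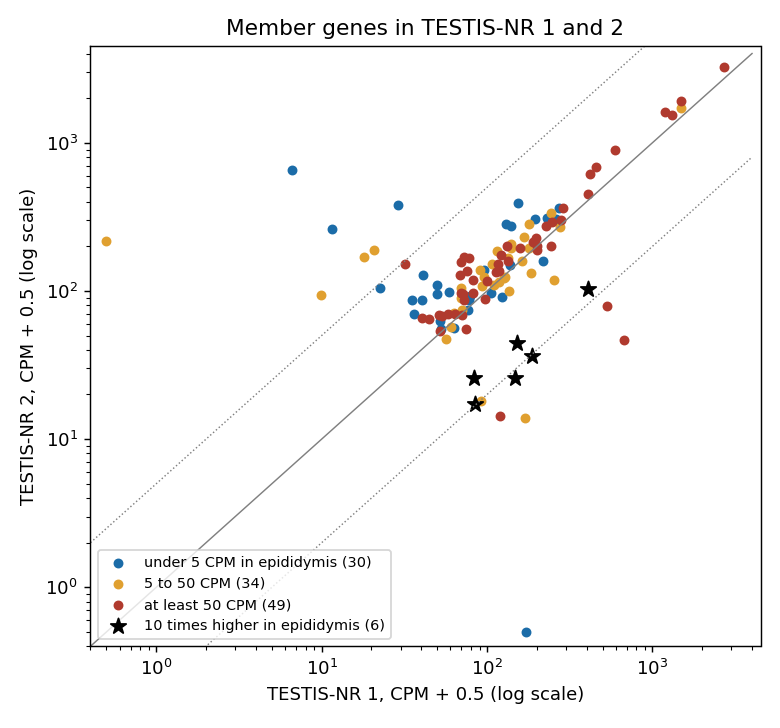
CPM plus 0.5 of the 119 members in TESTIS-NR 1 and TESTIS-NR 2 on log axes, coloured by epididymal level; the solid line marks equal values and the dotted lines ratios of 5. Most points lie near the line and slightly on the TESTIS-NR 2 side, and the 6 stars of members at least 10 times higher in the epididymis all lie on the TESTIS-NR 1 side.

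Some members had neighbouring identifiers. There were 2 runs of consecutive numbers, 1 of 3 members and 1 of 2, and 20 members had another member within 5 numbers. These counts were not made for other sets of genes, so whether they are high was not tested. The 3 in the longer run were ranked 30, 79 and 103 and did not move together: TESTIS-NR 2 was higher for ranks 30 (28.4 and 378.8 CPM) and 103 (22.1 and 103.6 CPM), and TESTIS-NR 1 for rank 79 (168.6 and 13.4 CPM). Whether close numbers mean close genes or near-identical copies that share reads was not tested.

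The caput and the cauda were then compared over their 12 libraries, with season as a covariate. Of the 119 members 110 passed the filter on low counts, and the 9 that did not had at most 2.71 CPM in any epididymal library. edgeR's quasi-likelihood test with Benjamini-Hochberg adjustment over all 17947 genes called 22 members higher in the caput and 27 higher in the cauda, 20% and 24.5% of those tested, where all genes gave 13.9% and 12.3%. The tested genes of at least 50 CPM in TESTIS-NR 1 and 2 gave 12.9% and 14.8%. The members were thus called in both directions, and more often than the background: 44.5%, against 26.2% of all genes tested and 27.7% of those at 50 CPM or more. In 13 of the 110 every caput library was above every cauda library, where 7.30% of all genes and 5.84% of those of at least 50 CPM were. In 14 the reverse held, where 5.64% and 6.38% were.

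The differences towards the caput were the larger ones. Among the 22 called higher in the caput the log2 difference ran from 0.45 to 9.09 with a median of 2.54, and 11 were at least 2. Among the 27 called higher in the cauda it ran from 0.34 to 2.38 in size with a median of 1.14, and 2 were at least 2. A caput mean of at least 5 CPM and 10 times the cauda mean was found in 7 members (5.88%, against 1.35% of the 5408 genes), and the reverse in 0 (against 0.0555%). By class, the 55 members of at least 50 CPM gave 10 calls towards the caput and 19 towards the cauda, the 34 between gave 8 and 7, and the 21 tested members under 5 CPM gave 4 and 1. Without the 6 members far higher in the epididymis than in the testis, 22 and 23 of 104 were called.

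TSDBGID.27614 had the smallest p of those higher in the caput. It had 20.1, 24.5 and 89.0 CPM in CAPUT-NR 1, 2 and 3 and 189.7, 315.6 and 135.7 CPM in CAPUT-R, against at most 0.359 CPM in any cauda library. Its log2 difference was 9.09 (SE 0.81, edgeR adjusted p 2.41e-05). In the testis it had 82.1 and 95.6 CPM in TESTIS-NR 1 and 2, so its level there was within the range of the caput libraries. TSDBGID.15236 was next, with 10.7 to 40.8 CPM in caput and 0.850 to 2.14 CPM in cauda (log2 difference 3.50, SE 0.33, edgeR adjusted p 3.43e-05). TSDBGID.7311, the most abundant member in the testis, was also called higher in the caput, with 25.2 to 150.4 CPM there and 0.755 to 3.13 CPM in cauda. Its log2 difference was 5.80 (SE 0.56, edgeR adjusted p 3.56e-05). TSDBGID.18083 had 261.4 to 497.1 CPM in caput and 369.8 to 693.4 CPM in cauda, and these ranges overlap.

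Members higher in the cauda differed by less. TSDBGID.16942 had 54.3 ± 4.17 CPM in CAPUT-NR and 50.7 ± 7.80 in CAPUT-R, against 92.4 ± 6.41 in CAUDA-NR and 94.4 ± 9.15 in CAUDA-R (SD, n = 3 each). It was lower in the caput by a log2 difference of -0.83 (SE 0.09, edgeR adjusted p 9.00e-05). TSDBGID.16465 had 170.0 ± 4.32 and 137.0 ± 10.1 CPM in CAPUT-NR and CAPUT-R, and 274.0 ± 22.5 and 264.4 ± 20.1 CPM in CAUDA-NR and CAUDA-R (SD, n = 3 each). Its log2 difference was -0.81 (SE 0.09, edgeR adjusted p 0.000101). For both genes every cauda library was above every caput library. With all 18 libraries in 1 edgeR fit neither was called (adjusted p 0.0534 for TSDBGID.16942 and 0.0887 for TSDBGID.16465). The members called higher in the cauda fell to 10 of 117 in that fit, with 20 higher in the caput. All genes gave 1296 of 19680 higher in the cauda and 2015 higher in the caput there.

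**Figure D5:**
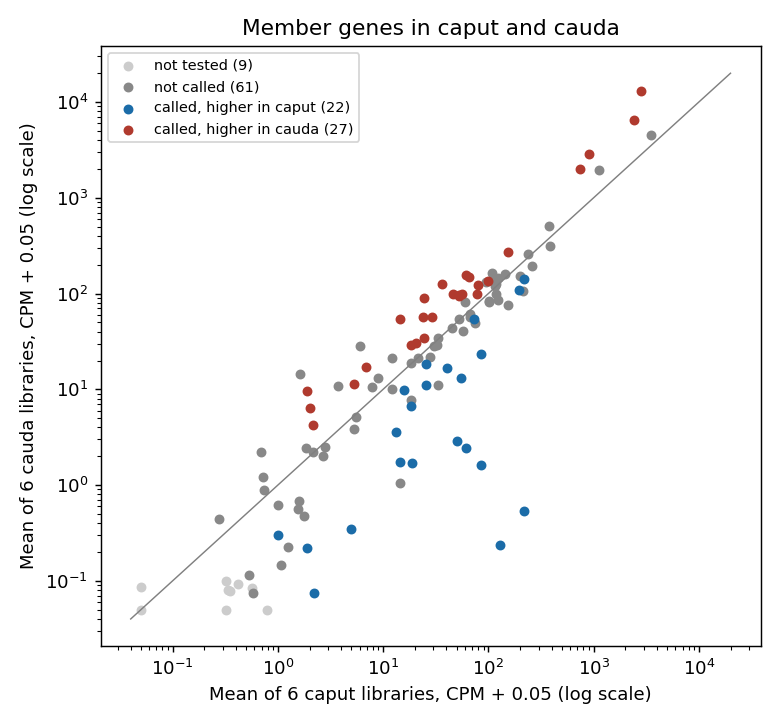
Mean CPM plus 0.05 of the 119 members over the 6 caput and the 6 cauda libraries on log axes, coloured by the call of the edgeR test; the line marks equal means. The 27 members called higher in the cauda stay close to the line, while several of the 22 called higher in the caput lie more than 10 times below it.

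The last question was whether the members, chosen by season in the testis, also differed by season in the epididymis. In the caput 108 members were tested and edgeR's quasi-likelihood test called 0, where all genes gave 0.00%. Before adjustment 7 members were higher and 18 lower in R at p under 0.05, 6.48% and 16.7%, where all genes gave 6.91% and 8.79%. These counts rested on single libraries, and so did those of all genes, given in brackets. They were 4 and 6 without CAPUT-NR 1 (735 and 595 of 17603) and 6 and 6 without CAPUT-NR 2 (794 and 617 of 17613). Without CAPUT-NR 3 they were 6 and 21 (1659 and 1638 of 17498). Without CAPUT-R 1 they were 3 and 13 (676 and 926 of 17647), and without CAPUT-R 2 4 and 35 (1809 and 2269 of 17632). Without CAPUT-R 3 they were 8 and 13 (969 and 825 of 17417). With all 18 libraries in 1 fit they were 4 and 4 (1239 and 983 of 19680). DESeq2 called 5 higher and 5 lower in R (all genes 3.26% and 2.83%). Every CAPUT-R library was below every CAPUT-NR library in 24 of the 108, where 14.2% of all genes and 13.4% of the genes of at least 50 CPM in TESTIS-NR 1 and 2 were, and above in 7, where 9.22% and 9.69% were. The median log2 change from NR to R was -0.37 over the tested members and 0.0018 over all genes. The 11 members not tested had at most 9.14 CPM in any caput library.

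In the cauda 100 members were tested and edgeR's quasi-likelihood test again called 0, where all genes gave 0.0122%. At an unadjusted p under 0.05, 7 were higher and 20 lower in R (7% and 20%, where all genes gave 12.5% and 13.0%). They were 6 and 14 without CAUDA-NR 1 (all genes 1357 and 1424 of 16855) and 4 and 11 without CAUDA-NR 2 (1318 and 1380 of 16806). Without CAUDA-NR 3 they were 11 and 22 (2424 and 2479 of 16950). Without CAUDA-R 1 they were 4 and 18 (1247 and 1489 of 16984), and without CAUDA-R 2 9 and 23 (2097 and 2214 of 17015). Without CAUDA-R 3 they were 6 and 16 (1310 and 1483 of 16874). With all 18 libraries in 1 fit they were 2 and 6 (all genes 1202 and 1291 of 19680). DESeq2 called 5 higher and 10 lower (all genes 7.79% and 6.92%). Groups that do not overlap were found for 23 of the 100 lower in R, where 17.1% of all genes and 15.1% of the genes of at least 50 CPM were, and for 8 higher, where 16.4% and 23.1% were. The median log2 change was -0.20 over the tested members and -0.02 over all genes. The 19 members not tested had at most 16.4 CPM in any cauda library. In both segments at once, 11 of 98 members tested in both were lower in R without overlap and 1 was higher, where all genes tested in both gave 6.35% and 3.46%. Without CAUDA-NR 3, edgeR called 7 of 101 members, 2 higher and 5 lower in R, where all genes gave 5.32%.

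The member with the smallest p in the cauda was ranked 111, 1 of the 6 that are far higher in the epididymis. It had 3441, 3762 and 2204 CPM in CAUDA-NR 1, 2 and 3 and 786.8, 775.2 and 767.2 CPM in CAUDA-R, with no overlap. Its log2 change was -1.91 (SE 0.21), and edgeR's adjusted p of 0.108 did not pass. In the caput it had 1450, 2391 and 821.7 CPM in NR and 725.4, 749.7 and 635.4 CPM in R. In each segment the NR library numbered 3 was the one nearest to R. In the caput the smallest p belonged to the member ranked 86, which had the opposite direction: 39.4, 36.4 and 35.9 CPM in CAPUT-NR and 79.0, 81.2 and 57.3 CPM in CAPUT-R (log2 change 1.02, SE 0.18, edgeR adjusted p 0.206). Both genes were picked here after their values were seen.

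In the epididymis, CAPUT-NR 3 was nearer to the R mean than to the mean of the other NR libraries in 53.7% of the tested members, against 28.7% and 33.3% for CAPUT-NR 1 and 2. For CAUDA-NR 3 it was 47%, against 19% and 25%. Over all genes tested the shares were 54.5% for CAPUT-NR 3 and 51.1% for CAUDA-NR 3. TSDBGID.27614 is an example, with 89.0 CPM in CAPUT-NR 3 where CAPUT-NR 1 and 2 had 20.1 and 24.5 CPM. The labels do not say that libraries of 1 number come from 1 animal. The 70 genes high in TESTIS-R held 0.204% of counts in CAPUT-R 3 and 0.0232% to 0.0744% in the other caput libraries. Without CAPUT-R 3, edgeR called 0 members in the caput (all genes 0 of 17417). It called 0 with that library too, so these calls cannot show whether it mattered.

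The difference between the season changes of the segments was tested as an interaction. edgeR's quasi-likelihood test called 0 of 110 members, where all genes gave 0.0279%, and 16 had an unadjusted p under 0.05 (14.5%, where all genes gave 7.35%). The 16 became 10 without CAPUT-NR 1 (all genes 1053 of 18425) and 26 without CAPUT-R 2 (all genes 1760 of 18446). With all 18 libraries in 1 fit they became 4 (all genes 846 of 19680). DESeq2 called 2, where all genes gave 1.35%. No member was without overlap in opposite directions in the 2 segments (0 of 98), where 0.796% of all genes tested in both were.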

How the data were processed

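Poly(A) RNA was sequenced with paired reads of 150 nt, per the labels' protocols. The authors deposited raw counts of 27777 genes with 1 column per library. featureCounts and bedtools are listed, with no role, per the submitters' processing notes. Aligner, genome build and strand setting: not given in the sources used here. Small RNA tables were not used here. Levels are CPM of the library total. Tests used edgeR 4.0.16 in R 4.3.3 (TMM scaling, default filter, quasi-likelihood), fitted over the whole table with an adjusted p under 0.05 called, and SE is the size of the log2 change over the square root of F. The code was tested on simulated data. Alternatives were library totals, DESeq2 1.42.0 or its size factors, no filter, a replicate block, all 18 libraries in 1 fit and leaving out each library. Identifiers were printed for the 2 most abundant members and, in each test, the 2 called members per direction with the smallest p, no overlap and at least 5 CPM; others, by rank, were chosen after their values were seen. Members, classes and tests were chosen with earlier results of these data known. Replicates are separate samples per the labels; p-values measure the spread between these. Caput and cauda libraries of 1 number had correlated deviations (0.054 to 0.317), against -0.285 to 0.056 for libraries of different numbers. They were not over 0.1 in every pair, so the number was not taken as a pairing. The main tests treat the libraries as independent, and whether those of 1 number share an animal was not tested.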

Additional observations from a re-analysis of the deposited data

How the results depend on the processing

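Which genes are members depends on the limits of the rule and on scaling. By TMM-scaled library sizes 52 genes met the rule, all 52 of them among the 119, since TMM moved the median log2 ratio of TESTIS-NR 1 and 2 to TESTIS-R over the 5408 genes from 0.66 to 0.09. A ratio of 5 gave 575 genes and of 20 gave 40, and a level of 20 CPM gave 259 and of 100 CPM 72. Calls between caput and cauda numbered 49, and 42 to 52 when 1 library was left out. With all 18 libraries in 1 fit they were 30 (20 higher in caput, 10 in cauda). There TSDBGID.16942 (edgeR adjusted p 0.0534) and TSDBGID.16465 (0.0887) did not pass. All genes gave 4706 of 17947, 3311 of 19680 with all 18 libraries, and 3827 to 4849 when 1 library was left out. Season calls were 0; DESeq2 gave 10 in the caput, 15 in the cauda and 2 for the interaction, and leaving out 1 library gave 0 to 7 in the cauda and 0 in the caput and the interaction. The replicate block gave 53 calls between the segments (all genes 5300 of 17947) and 0 in the season tests. For the interaction it gave 28 members at an unadjusted p under 0.05 in place of 16 (all genes 2001 of 17947). Without the 10 most abundant members the share of TESTIS-R counts was 0.0828%, in place of a mean of 0.167%. With a limit of 20 CPM in place of 50, 19 members lay in the middle epididymal class.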
